A study of Bubalus bubalis with 6 samples.

Results

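The troponin genes of water buffalo (Bubalus bubalis) muscle stem cells (MuSCs) were examined in proliferation and in differentiation. All rows of the gene table whose symbol is TNNC1, TNNC2, TNNI1, TNNI2, TNNI3, TNNT1, TNNT2 or TNNT3 were taken, which gave 8 of the 24616 genes listed, each with 1 row. The transcript table lists 15 mRNA transcripts of these genes among 22118. RNA-seq of polyadenylated RNA was available for 3 proliferation samples (GM1 to GM3, cells kept in growth medium with fetal bovine serum) and 3 differentiation samples (DM1 to DM3, cells moved to differentiation medium with horse serum once nearly confluent). The cells of both groups were primary MuSCs released by enzyme digestion from fetal longissimus muscle, and the labels name no genetic change. No step that would sort the MuSCs from other cells of the muscle is named in the labels. The labels do not say whether each sample was a culture of its own, so p-values measure only the spread between these samples, which may be technical.

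Troponin is the calcium switch of striated muscle and sits on the thin filament together with actin and tropomyosin. Troponin C binds calcium, troponin I holds the filament in the inhibited state, and troponin T anchors the complex to tropomyosin. Fast fibres use TNNC2, TNNI2 and TNNT3, and slow fibres use TNNC1, TNNI1 and TNNT1. The heart uses TNNC1, TNNI3 and TNNT2, so that TNNC1 serves both slow muscle and heart, and TNNT2 is also known from developing skeletal muscle. The comparison of GM with DM samples asks which of these genes differ between proliferating and differentiating cells, and whether the fast and slow forms change in equal proportion.

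Counts on genes ranged from 36657735 to 40305237 in GM and from 35615864 to 38177614 in DM samples. Of all genes, 15576 had 10 or more counts when the 6 samples were added up and were tested by quasi-likelihood in edgeR with TMM scaling. A gene was called a differentially expressed gene (DEG) where the log2 fold change was above 1 or below -1 and the Benjamini-Hochberg adjusted p was under 0.05, with positive values for higher expression in DM samples. DM3 stood apart from DM1 and DM2, since the chi-square of their counts divided by its degrees of freedom was 40.5 to 41.4, against 11.7 between DM1 and DM2 and 6.22 to 10.6 between GM samples. Beside the marker lists that follow, 15.0% of all tested genes were called higher and 10.3% lower. Among 12 tested markers of skeletal myoblasts and myotubes, 4 rose, 3 fell and 5 were not called. The median of their log2 fold changes was -0.34 (-0.18 with PAX3, which had no counts in DM samples, set at its bound of 3 counts per sample). The list joins markers of myoblasts and of myotubes, so its median gives no direction for either. CKM, the muscle creatine kinase, rose most in this list, with a log2 fold change of 6.32. The others that rose were MYF6 (3.97), CHRNA1 (1.97) and MYOG (1.66), and those that fell were MYF5 (-2.70), ITGA7 (-1.96) and PAX3. The call of PAX3 rests on few counts, with 4, 6 and 2 in GM1 to GM3. DES, the muscle intermediate filament desmin, was the marker of highest level and was not called, with a log2 difference of -0.15. Among 11 tested fibroblast markers 8 rose and 0 fell, and their summed level went from 36018 to 36803 CPM (counts scaled to the TMM-adjusted library size and given per 1e6) in GM samples to 98581 to 124378 CPM in DM samples. Most of this sum was collagen. Mean CPM in GM and DM samples was 15287 and 44328 for COL1A1, 10729 and 23420 for COL1A2, and 8298 and 39251 for COL3A1. The 3 markers not called were FBLN1 (0.93), PDGFRA (0.58) and POSTN (-0.93, lower in DM samples). The part of the shift in fibroblast markers in the troponin results was not tested.

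All 8 troponin genes were DEGs, and all 8 were higher in DM samples, while 15.0% of the tested genes were called higher and 10.3% lower. In each of the 8 genes the 3 DM samples lay above the 3 GM samples in CPM, and 68.8% of all tested genes showed such groups without overlap, in either direction. The log2 fold changes ran from 3.02 for TNNC2 to 5.20 for TNNI2, with a median of 4.08 against 0.03 over all tested genes and 1.93 over all genes called higher. Together the 8 genes held 7339, 4560 and 6914 counts in GM1, GM2 and GM3 and 77193, 81345 and 115118 counts in DM1, DM2 and DM3. They took 0.0162 ± 0.00422% of gene counts in GM and 0.246 ± 0.0485% in DM samples (SD, n = 3 each). In bulk samples, more cells that express a gene and more RNA per cell cannot be told apart.

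**Figure D1:**
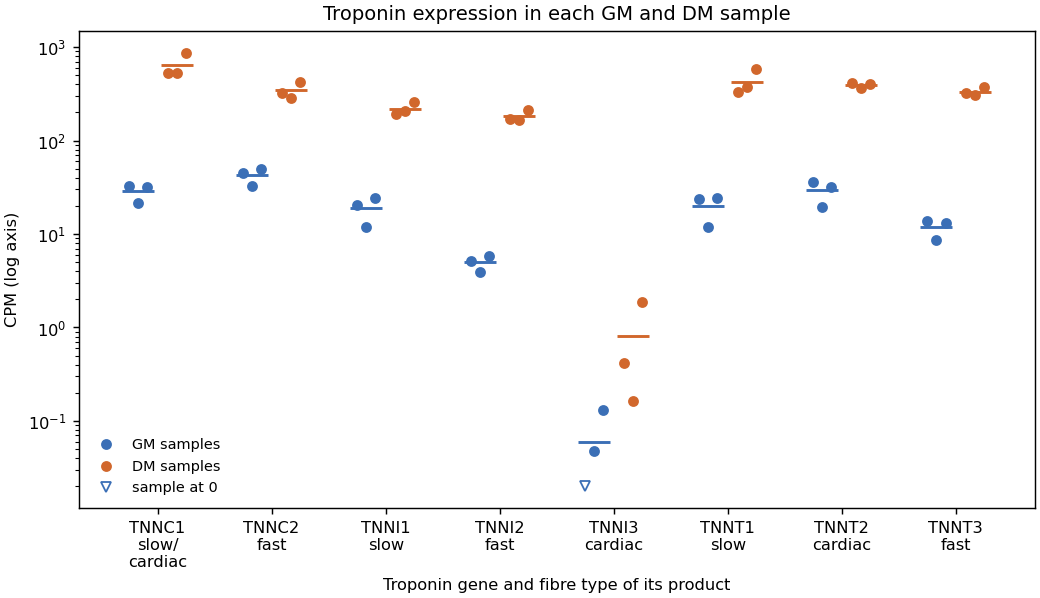
Expression of the 8 troponin genes in each sample, in CPM on a log axis, with GM samples in blue, DM samples in orange and a short line at each group mean; the GM1 sample without TNNI3 counts is drawn as an open triangle below the scale of the data. The DM samples lie above the GM samples for every gene, and TNNI3 lies below the other 7 genes in all 6 samples.

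Troponin C, the calcium sensor, is encoded by TNNC1 and TNNC2. TNNC1 (ENSBTAG00000045757, chromosome 22, 48988984 to 48991875, plus strand), the slow and cardiac form, had 1364, 886 and 1205 counts in GM1 to GM3 and 17755, 19181 and 32078 counts in DM1 to DM3. DM1 and DM2 lay close to each other, and DM3 held clearly more, at 1.65 times their mean CPM. Mean expression rose from 28.7 ± 6.40 to 639 ± 197 CPM (log2 fold change 4.48, SE 0.23, edgeR adjusted p = 6.85e-08). Among all tested genes TNNC1 stood at rank 5523 by mean CPM in GM and at rank 207 in DM samples.

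TNNC2 (ENSBTAG00000046725, chromosome 13, 75316423 to 75318650, minus strand), the fast form, had 1850, 1347 and 1905 counts in GM1 to GM3 and 11038, 10416 and 15509 counts in DM1 to DM3. DM3 was again the highest sample and GM2 the lowest, and the groups did not overlap. Its mean rose from 42.4 ± 9.13 to 344 ± 68.8 CPM, and its log2 fold change of 3.02 was the smallest of the 8 genes (SE 0.17, edgeR adjusted p = 1.45e-07).

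Troponin I, the inhibitory subunit, is encoded by TNNI1, TNNI2 and TNNI3. TNNI1 (ENSBTAG00000047231, chromosome 16, 49293852 to 49303508, minus strand), the slow form, had 844, 497 and 931 counts in GM1 to GM3 and 6435, 7640 and 9637 counts in DM1 to DM3. GM2 was the lowest sample and DM3 the highest. TNNI1 rose from 19.0 ± 6.42 to 219.9 ± 36.3 CPM (log2 fold change 3.54, SE 0.22, edgeR adjusted p = 2.69e-07).

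TNNI2 (ENSBTAG00000010880, chromosome 29, 50285049 to 50287648, minus strand), the fast form, had 216, 163 and 223 counts in GM1 to GM3 and 5790, 6109 and 7853 counts in DM1 to DM3. It had the fewest counts in GM samples of the genes of its class other than TNNI3, and all DM samples lay far above them. TNNI2 rose from 5.002 ± 0.998 to 184 ± 25.0 CPM, the largest fold change of the 8 genes (log2 fold change 5.20, SE 0.15, edgeR adjusted p = 2.14e-09). It stood at rank 39 of the 15576 tested genes by p.

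TNNI3 (ENSBTAG00000006424, chromosome 18, 62717575 to 62721350, plus strand), the cardiac form, had 0, 2 and 5 counts in GM1 to GM3 and 14, 6 and 69 counts in DM1 to DM3. DM3 held most of the DM counts, and DM2 with 6 counts was just above GM3 with 5. The gene was called higher, at 0.060 ± 0.0667 CPM in GM and 0.814 ± 0.918 CPM in DM samples, and its log2 fold change of 3.73 had the largest error of the 8 genes (SE 1.04, edgeR adjusted p = 0.00949). Without DM3 the log2 fold change was 2.25 (edgeR adjusted p = 0.0262), and without GM3 it was 4.91 (edgeR adjusted p = 0.0147). When edgeR tested for changes beyond 2-fold instead, the gene was no longer called (edgeR adjusted p = 0.0552).

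Troponin T, the subunit that ties the complex to tropomyosin, is encoded by TNNT1, TNNT2 and TNNT3. TNNT1 (ENSBTAG00000006419, chromosome 18, 62725898 to 62735263, plus strand), the slow form, had 991, 500 and 925 counts in GM1 to GM3 and 11210, 13586 and 21361 counts in DM1 to DM3. GM2 was the lowest sample, at 12.0 CPM against 23.9 and 24.4 CPM in GM1 and GM3, and DM3 was again the highest. TNNT1 rose from 20.1 ± 7.01 to 427 ± 132 CPM (log2 fold change 4.41, SE 0.29, edgeR adjusted p = 3.23e-07).

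TNNT2 (ENSBTAG00000045789, chromosome 16, 49259287 to 49262028, plus strand), the cardiac form, had 1500, 808 and 1221 counts in GM1 to GM3 and 13994, 13285 and 14762 counts in DM1 to DM3. The DM samples were close to each other, and DM3 was not set apart. TNNT2 rose from 29.3 ± 8.75 to 392 ± 26.3 CPM (log2 fold change 3.74, SE 0.19, edgeR adjusted p = 5.91e-08).

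TNNT3 (ENSBTAG00000022158, chromosome 29, 50218484 to 50233948, minus strand), the fast form, had 574, 357 and 499 counts in GM1 to GM3 and 10957, 11122 and 13849 counts in DM1 to DM3. Its GM counts were the lowest of the troponin T genes, and its DM counts were below those of TNNT2 in all 3 samples. TNNT3 rose from 11.9 ± 2.86 to 334 ± 36.2 CPM (log2 fold change 4.82, SE 0.17, edgeR adjusted p = 6.17e-09).

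**Figure D2:**
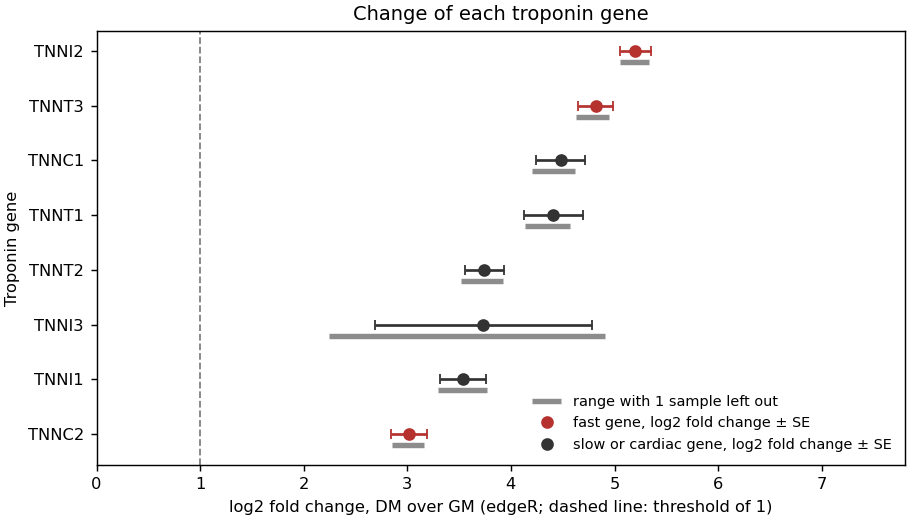
Log2 fold change of each troponin gene, DM over GM, as points with bars of 1 standard error from edgeR, above grey bars that span the values with each sample left out in turn. The fast genes TNNI2 (5.20) and TNNT3 (4.82) lie at the top and the fast gene TNNC2 (3.02) at the bottom, and the widest grey bar, 2.25 to 4.91, belongs to TNNI3.

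The order of fold changes did not follow the fibre type alone. The fast genes TNNI2 and TNNT3 had the largest log2 fold changes, whereas the fast gene TNNC2 had the smallest. The slow genes TNNC1 and TNNT1 lay between, at 4.48 and 4.41, and the slow gene TNNI1 was lower, at 3.54. TNNI1 and the cardiac TNNT2 differed by 0.21 on the log2 scale, about the size of their standard errors.

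Several troponin genes were high or low together in single samples. GM2 was the lowest GM sample for all genes but TNNI3, at 0.498 to 0.707 times the mean CPM of GM1 and GM3 in the 7 genes. Over the 12459 genes whose mean reached 1 CPM the median of this ratio was 1.0, and 2.96% of these genes had a ratio as low as the highest of the 7 or lower. DM3 was the highest DM sample for all genes but TNNT2. In the 6 genes other than TNNI3 and TNNT2 it reached 1.19 to 1.65 times the mean CPM of DM1 and DM2, against a median of 1.0 over the same 12459 genes, of which 14.8% had a ratio at least as high as the lowest of the 6. The summed levels of 14 other fast fibre genes, of slow fibre genes and of thin filament partners were likewise lowest in GM2 among GM samples. They were also highest in DM3 among DM samples. The same order was seen in the sums of cardiomyocyte, smooth muscle and skeletal markers and of fibre type regulators, in part by small margins. The summed fibroblast markers differed little between GM samples, at 36803, 36018 and 36515 CPM in GM1 to GM3, and were lowest in DM3 among DM samples, at 98581 CPM. That sum is mostly collagen, and its members did not move alike. COL3A1 had 1510658, 1526602 and 1158761 counts in DM1 to DM3, and POSTN had 5894, 6904 and 13100. All 8 troponin genes were still called higher without GM2 and without DM3.

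The fast share of each troponin class was then computed as the counts of the fast gene in percent of the counts of all genes of its class. Such shares do not depend on the library size. Troponin C had a fast share of 57.6%, 60.3% and 61.3% in GM1 to GM3 and of 38.3%, 35.2% and 32.6% in DM1 to DM3. The GM samples were high and the DM samples low, without overlap. The mean went from 59.7 ± 1.92% to 35.4 ± 2.88%, a difference of -24.3 percentage points that was larger than the spread between samples (exact two-sided permutation test, p = 0.1). On the per-length scale (RPKM, reads scaled by gene length and library size, as the authors computed them) the fast share was 72.3 ± 1.61% in GM samples, and 52.2%, 48.8% and 45.9% in DM1 to DM3, so that TNNC2 still led TNNC1 in DM1 and lay below it in DM2 and DM3.

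Troponin I went the other way. TNNI2 made up 20.4%, 24.6% and 19.2% of troponin I counts in GM1 to GM3 and 47.3%, 44.4% and 44.7% in DM1 to DM3. The slow TNNI1 thus held the larger part in all 6 samples, but by a smaller margin in DM samples. The mean fast share went from 21.4 ± 2.84% to 45.5 ± 1.59%, a difference of 24.1 percentage points without overlap between the groups (exact two-sided permutation test, p = 0.1). TNNI3 took 0.244 ± 0.221% of troponin I counts in GM and 0.184 ± 0.185% in DM samples, with overlap.

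For troponin T, TNNT3 made up 18.7%, 21.4% and 18.9% of counts in GM1 to GM3 and 30.3%, 29.3% and 27.7% in DM1 to DM3. The groups did not overlap, and the mean went from 19.7 ± 1.53% to 29.1 ± 1.30%, a difference of 9.42 percentage points (exact two-sided permutation test, p = 0.1). The share of TNNT2 went from 47.9 ± 1.5% to 34.4 ± 4.61%, also without overlap (exact permutation p = 0.1). TNNT1 took 32.4 ± 2.47% in GM and 36.5 ± 5.91% in DM samples, and these overlapped (exact permutation p = 0.4). Per length TNNT2 was the leading troponin T gene in all 6 samples, with 58.4 ± 1.48% of troponin T RPKM in GM samples and 49.3%, 45.2% and 39.1% in DM1 to DM3, against 26.1%, 30.6% and 37.5% for TNNT1 in DM1 to DM3.

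With 3 samples against 3 the exact test cannot give a p below 0.1, so none of these shares could pass a threshold of 0.05, and the p adjusted over the 3 classes is 0.1 as well. The widest 95% Wilson interval of a single sample's share was that of troponin I in GM2, from 21.5% to 28.0%, with 163 of 662 counts. These intervals cover counting error only. Over all 8 genes the fast share was 38.3 ± 2.50% in GM and 34.1 ± 1.84% in DM samples, and the groups overlapped (exact permutation p = 0.2). Per length the same share was 48.2 ± 2.78% and 38.7 ± 1.48%, without overlap (exact permutation p = 0.1).

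**Figure D3:**
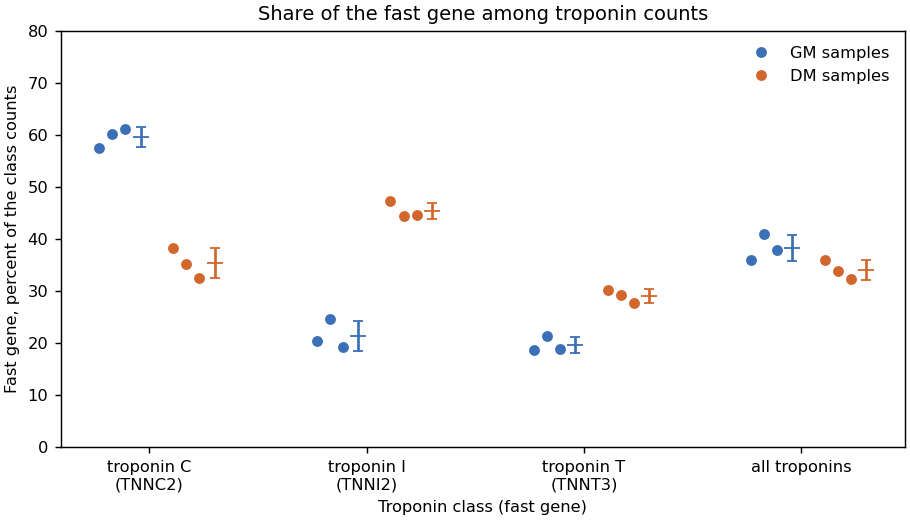
Counts of the fast gene in percent of all counts of its troponin class, and of all 8 genes together, with 1 point per sample and the mean ± SD beside the points. The fast share is lower in DM samples for troponin C (59.7% to 35.4%) and higher for troponin I (21.4% to 45.5%) and troponin T (19.7% to 29.1%), while the groups overlap for all troponins together.

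Ratios between pairs of genes located these shifts. The log2 ratio of TNNC2 to TNNC1 counts was 0.57 ± 0.11 in GM and -0.87 ± 0.18 in DM samples. For TNNI2 over TNNI1 it was -1.88 ± 0.24 and -0.26 ± 0.09, and for TNNT3 over TNNT2 it was -1.28 ± 0.10 and -0.23 ± 0.13. None of these 3 ratios overlapped between the groups (exact permutation p = 0.1 each, 0.125 adjusted over 5 ratios). The ratio of the fast TNNT3 to the slow TNNT1 was -0.72 ± 0.21 and -0.32 ± 0.30, with overlap (exact permutation p = 0.2). The slow TNNT1 over the cardiac TNNT2 went from -0.56 ± 0.15 to 0.08 ± 0.43, without overlap (exact permutation p = 0.1), and this difference of 0.65 was 0.42 without DM3. The fast TNNT3 thus differed from TNNT2 without overlap, while its difference from TNNT1 was within overlapping groups and ranged from 0.26 without DM1 to 0.56 without DM3.

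Levels of different genes can be compared only per length, for which the deposited RPKM values were used. In GM samples the order of mean RPKM was TNNC2 (112), TNNT2 (51.6), TNNC1 (43.0), TNNI1 (26.4), TNNT1 (23.5), TNNT3 (13.4), TNNI2 (7.12) and TNNI3 (0.0724). Neighbours in this order overlapped in their ranges except TNNC2 over TNNT2, TNNT3 over TNNI2 and TNNI2 over TNNI3. In DM samples the order was TNNC1 (897), TNNC2 (847), TNNT2 (645), TNNT1 (466), TNNT3 (351), TNNI1 (286), TNNI2 (244) and TNNI3 (0.919). There the ranges of neighbours were apart for TNNC2 over TNNT2 and for TNNI2 over TNNI3, and overlapped for the others. Within single samples each gene was above the next in all 3 samples of its group for every pair of neighbours, except TNNC1 over TNNC2, which held in 2 of 3 DM samples. The RPKM values rest on the listed lengths, which are 392 bases for TNNC2 and 587 bases for TNNT2 but 689 bases for TNNC1, 887 bases for TNNT1 and 919 bases for TNNT3. How reads that match several troponin genes were treated is not given in the sources used here, so a part of the counts could be split between paralogs.

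The total RPKM of troponin C went from 155 ± 33.4 to 1744 ± 444, that of troponin I from 33.6 ± 10.4 to 531 ± 82.8 and that of troponin T from 88.4 ± 26.8 to 1462 ± 192. These are 11.3, 15.8 and 16.5 times the GM means. Troponin C exceeded troponin T in all 6 samples, by 1.797 ± 0.235 times in GM and by 1.18 ± 0.138 times in DM samples, and this ratio did not overlap between the groups (exact permutation p = 0.1). The ratio of troponin T to troponin I was 2.65 ± 0.331 and 2.76 ± 0.128, which overlapped (exact permutation p = 0.6). In percent of the summed troponin RPKM, TNNC2 went from 40.8 ± 2.65% to 22.6 ± 1.05%, TNNC1 from 15.6 ± 0.752% to 23.7 ± 2.69% and TNNI2 from 2.60 ± 0.216% to 6.57 ± 0.330%. TNNT2 was at 18.5 ± 1.8% and 17.6 ± 2.88%, with overlap between the groups.

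**Figure D4:**
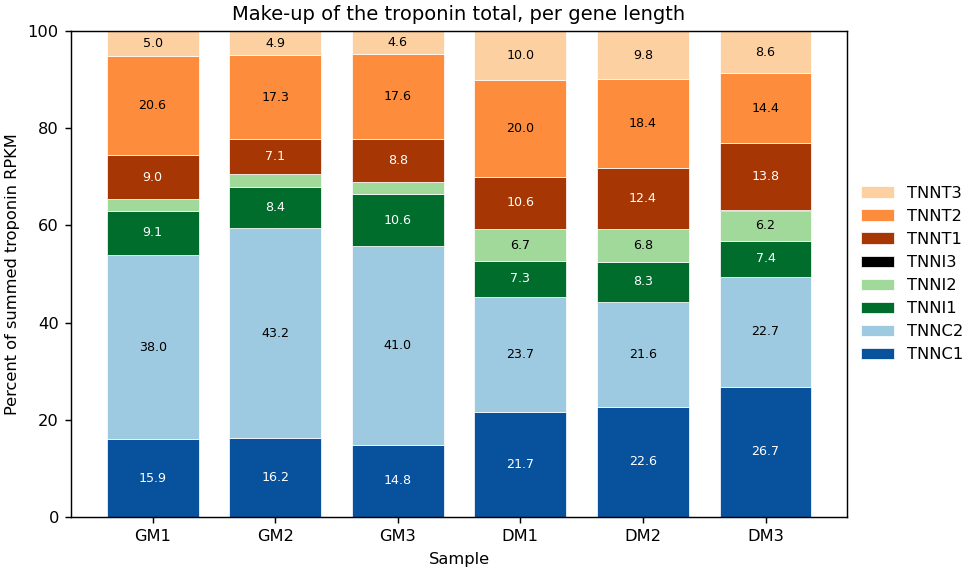
Make-up of the summed troponin RPKM in each of the 6 samples, in percent, stacked from TNNC1 at the base to TNNT3 at the top, with values of 4% or more printed in the bars; TNNI3 is too small to be seen. TNNC2 (pale blue) is 40.8% of the total on average in GM and 22.6% in DM samples, and TNNI2 and TNNT3 are larger in every DM sample than in any GM sample.

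The 15 listed transcripts of the 8 genes were all called higher in DM samples in the transcript table, where 25.6% of 16352 tested transcripts were called, 15.5% higher and 10.1% lower. Their log2 fold changes ran up to 5.28, and the lowest outside TNNI3 was 3.00. TNNI2, TNNT1 and TNNT2 have 2 listed transcripts each, TNNT3 has 5 and the other 4 genes have 1. The transcript counts of a gene add up to more than its gene count, so the same reads were counted on several transcripts and a transcript's percent of the gene count is not its share of molecules. Of the 11 transcripts of genes with more than 1, 5 had percents that did not overlap between the groups, against 15.9% of 2873 such transcripts in the whole table.

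Troponin T genes are known for alternative splicing, and the largest difference in percent was in TNNT2. Its transcript ENSBTAT00000065361 (547 bases) drew 55.3%, 55.9% and 54.6% of the gene's counts in GM1 to GM3 and 49.3%, 49.4% and 48.6% in DM1 to DM3. The other, ENSBTAT00000064811 (581 bases), drew 99.4 ± 0.467% and 99.3 ± 0.177%, so that nearly all reads could be placed on it in both groups. For TNNT3, ENSBTAT00000008371 (863 bases) went from 93.6 ± 1.43% to 89.0 ± 0.587%, and for TNNT1, ENSBTAT00000064903 (854 bases) went from 78.7 ± 1.76% to 75.7 ± 0.880%. The other transcripts without overlap moved less, ENSBTAT00000064506 of TNNT3 from 99.8 ± 0.323% to 98.4 ± 0.362% and ENSBTAT00000014452 of TNNI2 from 98.7 ± 0.60% to 99.7 ± 0.103%. Each of the 5 has an exact permutation p of 0.1, which is 0.22 after adjustment over the 11 transcripts. The reads that match ENSBTAT00000065361 rose with a log2 fold change of 3.56, against 3.72 for ENSBTAT00000064811.

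Troponin I and troponin T genes lie in linked pairs in the listed coordinates. TNNI3 and TNNT1 are on the same strand of chromosome 18, with the start of TNNT1 4548 bases beyond the end of TNNI3. TNNT2 and TNNI1 face each other on chromosome 16 at a distance of 31824 bases, and TNNT3 and TNNI2 are on the minus strand of chromosome 29 at 51101 bases. The members of a pair had log2 fold changes of 4.41 and 3.73 for TNNT1 and TNNI3, 3.74 and 3.54 for TNNT2 and TNNI1, and 4.82 and 5.20 for TNNT3 and TNNI2. The linked TNNT3 and TNNI2 are both fast genes and had the largest changes of the family, while the other pairs each hold a slow and a cardiac gene.

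No troponin gene overlaps another listed gene, on either strand. Within 50 kb of the 8 genes the table lists 30 genes that are not troponins, of which 25 were tested. Of these, 7 were called higher, 2 lower and 16 not called, with a median log2 fold change of 0.58. Over all tested genes 15.0% were called higher and 10.3% lower. UBE2C, the ubiquitin-conjugating enzyme of the anaphase-promoting complex, lies 6235 bases from TNNC2 and fell by 2.67 on the log2 scale, from 162 ± 9.18 to 25.5 ± 5.08 CPM. LSP1, which lies between TNNT3 and TNNI2, was at 6.90 CPM in GM and 12.0 CPM in DM samples and was not called, with a log2 difference of 0.80. LAD1, between TNNT2 and TNNI1, was called higher at a low level, from 0.350 to 1.8 CPM. In the RefSeq annotation of the buffalo genome NISCH and SEMA3G flank TNNC1, UBE2C and SNX21 flank TNNC2, LSP1 and SYT8 flank TNNI2, LAD1 lies beside both TNNT2 and TNNI1, and TNNI3 lies beside TNNT1. The other neighbours there are PHLDA3 for TNNI1, DNAAF3 for TNNI3, PPP1R12C for TNNT1, LOC102412180 for TNNT2, and MRPL23 and LOC102400174 for TNNT3, whose nearest listed neighbour in the deposited coordinates is LSP1.

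Other genes of the thin filament and of fibre types were read from lists of known members. For this and the following lists, 15.0% of all tested genes were called higher and 10.3% lower. The 14 tested fast fibre genes had 13 called higher and 0 lower, and their median log2 fold change was 4.07 (3.93 with PVALB, which had no counts in GM samples, set at its bound), and the 14 slow fibre genes had 13 called higher and 0 lower, and theirs was 4.16. These medians are near the 4.08 of the troponin genes. The regulatory light chain MYLPF of fast fibres rose by 4.16 on the log2 scale and its slow counterpart MYL2 by 4.35. MYH1, a fast myosin heavy chain, had 0, 1 and 3 counts in GM1 to GM3 and 200, 258 and 92 counts in DM1 to DM3, and was highest in DM2 and lowest in DM3, unlike most troponins. MYBPC1, the slow myosin binding protein C, had 3, 6 and 5 counts in GM samples and 817, 1037 and 766 counts in DM samples, and rose most among the slow fibre genes. ATP2A2, the calcium pump of slow fibres and of many other cells, was not called, with a log2 difference of 0.21.

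Of 20 tested rows of thin filament partners, 11 rose, 1 fell and 8 were not called, with a median log2 fold change of 1.09. LMOD3, a leiomodin that nucleates actin in muscle, rose by 4.86 on the log2 scale, and the cardiac actin ACTC1, which developing skeletal muscle also uses, rose by 1.31. The tropomyosins TPM2 and TPM4, members of the family that troponin T binds, had log2 differences of 0.92 and -0.74 and were not called. TPM1 was not called either, in rows at 0.999 and -0.36. All of these tropomyosin rows missed only the fold threshold, with edgeR adjusted p of 0.00441 or less. Troponin C belongs to the EF-hand family of calcium sensors, of which 15 other genes were tested. Of these, 4 rose and 0 fell, with a median log2 fold change of 0.40. S100A1, a calcium sensor of striated muscle, rose by 5.06, and S100A11, with the highest level of the list, had a log2 difference of -0.93 and was not called.

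Because TNNT2, TNNI3 and TNNC1 are used in the heart, markers of cardiomyocytes were read beside them. Of 16 listed markers 9 could be tested, of which 4 rose, 2 fell and 3 were not called, with a median log2 fold change of 0.58. MYL7, NPPB and HAND1 had no counts in any sample, NPPA had 1 count in all, and NKX2-5 and GATA4 had at most 1 count per sample. The atrial and fetal light chain MYL4 rose by 5.20 and the heavy chain MYH6 by 3.64 on the log2 scale, and MYL4 is known from fetal skeletal muscle too. MYH6 is a close copy of the slow chain MYH7, so reads could be split between them. The summed level of the markers went from 19.7 to 26.5 CPM in GM samples to 291 to 503 CPM in DM samples, with DM3 highest. Among 10 smooth muscle markers 2 rose, 2 fell and 6 were not called, with a median of 0.07 and summed levels of 4367 to 4569 CPM in GM and 3474 to 3971 CPM in DM samples.

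Of 23 tested regulators of fibre type 7 rose and 0 fell, with a median log2 fold change of 0.46. MEF2C, a transcription factor of muscle genes, had the largest change, at 4.02, with 1912, 2468 and 3768 counts in DM1 to DM3 against 236, 131 and 192 counts in GM1 to GM3. Its samples thus followed the order of many troponin genes, with GM2 lowest and DM3 highest. HDAC5, a repressor of MEF2 factors, had a log2 difference of -0.66 and was not called. Of 13 tested splicing regulators that are known to act on troponin T or other muscle transcripts, 2 rose, 1 fell and 10 were not called, with a median of -0.14. These counts are near the shares over all tested genes, 15.0% called higher and 10.3% lower. PTBP1, a repressor of muscle exons, fell by 1.32 on the log2 scale, and RBM24, a promoter of muscle exons, rose by 1.45.

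**Figure D5:**
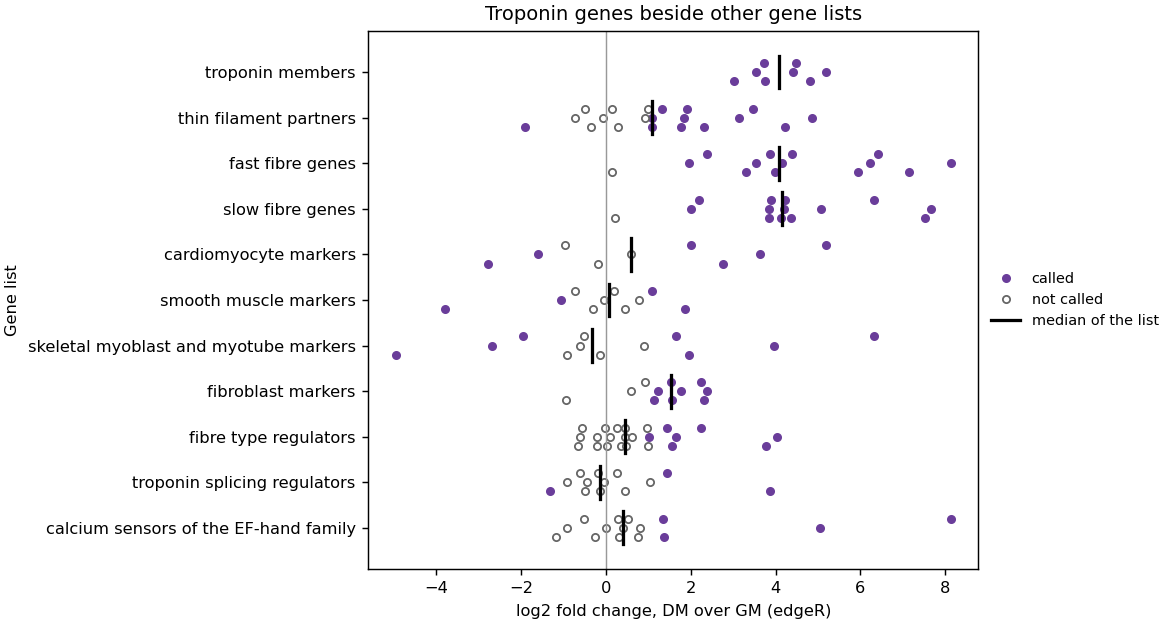
Log2 fold change, DM over GM, of each tested gene in the troponin family and in 10 other gene lists, with filled points for called genes, open points for genes not called and a bar at the median of the list; PVALB and PAX3, without counts in a group, are drawn at fitted values that depend on the prior count. The medians of troponins (4.08), fast fibre genes (4.07) and slow fibre genes (4.16) lie together, above those of the thin filament partners (1.09) and the fibroblast markers (1.54).

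The genes whose pattern over the 6 samples was most like the mean troponin pattern were sought among 12452 genes whose mean reached 1 CPM, by the root mean square distance of log2 CPM values centred on each gene's mean. The closest was ENSBTAG00000032531, listed without a symbol, at a distance of 0.105 on the log2 scale. It was followed by MYL6B at 0.14, NRAP at 0.142, MYH7 at 0.154 and MYLPF at 0.154, against a median distance of 2.03 over all these genes. MYL6B is a myosin light chain, NRAP an anchoring protein of forming myofibrils, and MYH7 the slow myosin heavy chain. The troponin genes themselves lay at 0.257 for TNNI1 to 1.11 for TNNI3. The 5 genes were picked for their small distances, so those distances are a description.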

How the data were processed

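RNA-seq was analysed for 3 GM and 3 DM samples. The count columns deposited by the authors hold raw read counts per gene and per mRNA transcript, and the deposited RPKM columns were scaled by the authors by feature length and library size. The paper's methods name HISAT2 and the buffalo genome, the submitters' processing notes list Bowtie 0.12.2 with the builds mm8 and mm9, and the tables list cattle Ensembl identifiers, so coordinates are given as listed, with the build and the use of strand not given in the sources used here. The authors' lists of fold changes and p-values were not used.

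Genes with at least 10 counts in total were tested with edgeR 4.0.16 (quasi-likelihood, TMM) in R 4.3.3, and standard errors were taken from the F statistic. On simulated data for this comparison, with 200 of 15576 genes changed 4-fold, 198 were recovered and 7 unchanged genes were called. The changed genes were drawn from those with a mean of at least 1 CPM, so the recovery does not cover genes as low as TNNI3. Shares were compared with exact two-sided permutation tests (scipy 1.17.1). Log2 ratios used a prior of 0.5 counts. Gene names of neighbours in buffalo came from RefSeq assembly NDDB_SH_1.

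The troponin genes, the lists beside them and the alternatives were chosen with earlier results of these data known. Genes were named mostly from the up to 3 of highest mean CPM in a list and its called gene of at least 1 CPM with the largest change. Not all such genes were named, and none of the smooth muscle markers was. The genes at or near 0 counts, the other called skeletal markers, TPM1 and the fibroblast markers not called were named after their values were seen. Alternatives were DESeq2 1.42.0, other scalings and filters, other fold thresholds, a replicate block and each sample left out.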

Additional observations from a re-analysis of the deposited data

How the results depend on the processing

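All 8 troponin genes were called higher under DESeq2, library size alone, DESeq2 size factors, no filter on low counts, no minimum fold change, the replicate block and each sample left out. TNNI3 was the exception elsewhere, with 7 genes called after filterByExpr, which removed it, and 7 when changes beyond 2-fold were tested for. Over all genes, 3936 calls became 2293 in that test and 9813 without a minimum fold change, and 4184 transcripts became 2510 and 10571, as these settings tighten or drop the fold threshold. Leaving out each sample gave 3647 to 3995 genes and 3904 to 4274 transcripts. Same-numbered GM and DM samples had correlations of -0.0529 to -0.00339 in their deviations, and differently numbered ones of -0.0374 to 0.0456. With 3 samples per group such values cannot show whether the numbers pair cultures. The replicate block gave 3837 genes, 4094 transcripts and 8 troponin genes. The SE of each of the 8 genes was smaller with the block, as for TNNC1 with 0.14 in place of 0.23. As paired differences with the block, the fast shares moved by -24.3 ± 4.77 (troponin C), 24.1 ± 3.77 (I) and 9.42 ± 1.93 (T) percentage points (exact sign-flip p = 0.25 each, the smallest that 3 pairs allow). With each sample left out the differences ran from -25.8 to -22.9, from 23.0 to 25.7 and from 8.82 to 10.3 points, and that of all troponins from -5.37 to -2.88. Leaving out samples for the log2 ratios between pairs of genes was added after seeing the data and kept every direction. Library size alone put the median over all genes at -0.07 in place of 0.03 (log2). With 3 samples per group the exact tests cannot pass 0.05, and TNNI3 rests on few counts.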
